A study of Mus musculus with 5 samples.

Results

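The mitosis genes described here are a set of 57 listed genes that encode the cyclins, kinases, motors, kinetochore proteins, condensins and cytokinesis factors of cell division. Members were chosen by function, and a member was kept if a probe set of the array carried its symbol and no other. Of the 57, 54 had such a probe set, out of 22180 genes on the array with a symbol of their own, and the probe set with the highest mean was used for each gene. Ccnb1, Sgol1 and Ncapg had none under the listed symbol and are not counted below. Of the 54, 53 were tested, which means that the highest of their values over the arrays reached the median of its array, and 12317 genes in all did so. Kif14, a kinesin of the midbody, did not reach that level.

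The RNA came from mouse embryonic fibroblasts (MEFs), labelled as primary cells, of the STING-/- genotype. A STING carrying R284S, a change that makes this innate immune adaptor constitutively active, had been put back into them. The cells of all 5 groups share both features, so neither the knockout nor the variant can be compared with another state here. The groups are vehicle, Compound C, doxorubicin, GSK 690693 and tofacitinib, each treated for 9 hours. No dose is given, and no label says that the arrays came from separate cultures. Each group is 1 array, made from 300 ng of total RNA. Compound C (dorsomorphin) inhibits AMPK and BMP type I receptors, doxorubicin poisons topoisomerase II and intercalates into DNA, GSK 690693 inhibits AKT kinases, and tofacitinib inhibits JAK kinases. The series describes its treatments as AMPK inhibitors, and the question each comparison answers is how far the transcripts of cell division on a compound array lay from those of vehicle.

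No group has a replicate, so no difference below has an error or a p-value, and none has a replicate check. Values are log2 signals, differences are log2 signal on 1 array minus that on another, and members are counted where they reach 1.5-fold, which is 0.585 on the log2 scale. The closest pair of arrays, GSK 690693 and tofacitinib, had a standard deviation of 0.258 in the log2 difference over the tested genes, and the farthest, Compound C and doxorubicin, had 0.656. Over the tested genes the median difference from vehicle was -0.02 (Compound C), 0.05 (doxorubicin), 0.04 (GSK 690693) and 0.09 (tofacitinib). All 8 fibroblast markers were tested and their summed signal stayed between 13.53 and 13.72 over the arrays, though Pdgfrb read -1.21 from vehicle with Compound C. Of 7 leukocyte markers with a probe set, Cd68 and Csf1r were tested and Ptprc was not, and the summed signal of this list was 8.43 with doxorubicin against 7.82 to 7.97 on the other arrays. The part of other cells in the results was not tested. In RNA from a whole culture, fewer cells in division and less transcript per dividing cell cannot be told apart.

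Cells enter mitosis when cyclin A and cyclin B bind CDK1 and the CDC25 phosphatases remove its inhibitory phosphates. Polo-like and Aurora kinases then build the spindle, the kinetochores attach chromosomes to it, and the checkpoint kinases hold back the anaphase-promoting complex (APC/C) until every chromosome is attached. CDC20 with the APC/C then triggers the destruction of securin and cyclin B, separase cuts cohesin, and the cleavage furrow divides the cell. Most of these genes are transcribed late in the cell cycle. Their promoters are known for the cell cycle genes homology region (CHR), which is bound by the MuvB core as part of the repressive DREAM complex or together with B-Myb and FOXM1, and for CCAAT boxes, which are bound by NF-Y.

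The promoter sequence is a feature that the choice of members did not use. RefSeq promoter windows of the assembly GRCm38.p6, holding 250 bases before and 50 bases from the start site on, were found by symbol for 45 of the 54 genes. They were not found for Ccna2, Cdc25c, Foxm1, Kif20a, Spc24, Aurkb, Incenp, Smc4 and Tpx2. The letters TTTGAA of the CHR, searched on both strands, occurred in 32 of the 45 windows (71.1%), against 18.1% of 27025 promoters and 11.4% of the 9718 promoters of tested genes. The letters CCAAT, also searched on both strands, occurred in 31 windows (68.9%), against 37.9% of all promoters, and 27 windows held both motifs (60.0% against 7.1%). No match of the CHR shared a base with a match of the CCAAT box. Stretches before the start site are shown for Cdk1, Kif11, Cdc20, Top2a, Ube2c, Mki67 and Ckap2l, which carry both motifs and stand for the main patterns below, and for Plk4, which carries neither in its window and read above vehicle with Compound C. Capitals mark the matches, TTTGAA or its reverse TTCAAA and CCAAT or its reverse ATTGG, and each sequence runs 5′ to 3′ along the gene's strand.
Cdk1, chr10:69352913-69353012, minus strand: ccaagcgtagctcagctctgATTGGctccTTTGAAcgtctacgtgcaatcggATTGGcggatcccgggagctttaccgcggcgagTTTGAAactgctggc
Kif11, chr19:37376282-37376381, plus strand: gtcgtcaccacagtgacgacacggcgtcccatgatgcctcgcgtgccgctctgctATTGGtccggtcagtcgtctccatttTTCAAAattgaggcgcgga
Cdc20, chr4:118437344-118437443, minus strand: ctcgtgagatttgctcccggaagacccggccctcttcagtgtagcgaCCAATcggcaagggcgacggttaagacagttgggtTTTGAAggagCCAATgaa
Top2a, chr11:99024190-99024299, minus strand: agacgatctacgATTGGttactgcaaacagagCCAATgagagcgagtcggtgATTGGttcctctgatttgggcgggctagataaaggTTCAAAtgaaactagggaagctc
Ube2c, chr2:164769829-164769928, plus strand: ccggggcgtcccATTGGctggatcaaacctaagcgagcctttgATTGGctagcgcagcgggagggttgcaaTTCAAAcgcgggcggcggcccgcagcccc
Mki67, chr7:135716460-135716579, minus strand: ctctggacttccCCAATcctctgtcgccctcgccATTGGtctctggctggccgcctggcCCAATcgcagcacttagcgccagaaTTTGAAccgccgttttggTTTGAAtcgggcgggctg
Ckap2l, chr2:129297213-129297342, minus strand: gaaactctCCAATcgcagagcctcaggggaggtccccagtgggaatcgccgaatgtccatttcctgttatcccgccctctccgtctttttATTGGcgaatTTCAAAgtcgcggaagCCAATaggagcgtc
Plk4, chr3:40799851-40799950, plus strand: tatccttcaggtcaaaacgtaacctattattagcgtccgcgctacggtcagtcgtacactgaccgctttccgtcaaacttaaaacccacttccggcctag

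The stretches of Cdk1, Kif11, Cdc20, Top2a, Ube2c and Ckap2l end 1 base before the start site, so that their last CHR lies close to it, downstream of at least 1 CCAAT box. In Cdk1 the 2 CHR matches begin at -71 and -15, and the CCAAT boxes of the stretch at -80 and -48. The CHR of Kif11 begins at -19 and that of Cdc20 at -18. Mki67 differs, with its CHR matches at -116 and -98, farther upstream. Over the 45 windows the first base of the 43 CHR matches lay between -234 and 42, with a median of -15, and 30 of them lay at -30 or later. Counted by gene, 27 of the 45 windows (60.0%) held a CHR at -30 or later, against 3.8% of all promoters, a limit that was set after the positions were seen. A match is a description of letters, not of binding.

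**Figure D1:**
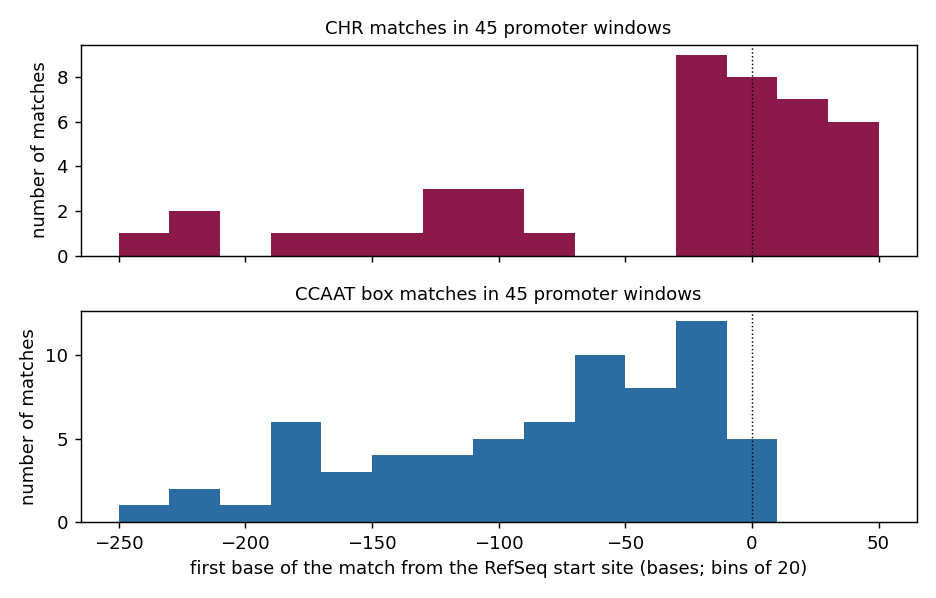
Number of matches to the CHR (upper panel) and the CCAAT box (lower panel) by the distance of their first base from the RefSeq start site, in bins of 20 bases, over the promoter windows of 45 mitosis genes. The CHR matches gather at -30 or later (30 of 43), and the CCAAT boxes lie mostly upstream of the start with a median of -65.

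With Compound C the mitosis genes read lower than with vehicle almost throughout. Of 53 genes, 50 lay below vehicle, as did 52.2% of all tested genes. At least 1.5-fold lower were 18 (34.0%, against 9.99% of all tested genes), and 0 were at least 1.5-fold higher (6.06% of all). The median difference was -0.45 with quartiles of -0.69 and -0.25. The lowest were Kif23 (-1.24) and Plk1 (-1.20), the 2 members at least 2-fold lower, a size that 2.52% of all tested genes reached. Plk4 (0.47), Incenp (0.25) and Ckap2 (0.23) lay above vehicle.

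With doxorubicin, 48 of the 53 lay below vehicle, as did 45.1% of all tested genes. At least 1.5-fold lower were 15 (28.3%, against 14.2% of all tested genes), and 0 were at least 1.5-fold higher (11.5% of all). The median was -0.36 with quartiles of -0.63 and -0.14. The standard deviation over members was 0.464, against 0.34 with Compound C, and over all tested genes it was likewise wider, 0.584 against 0.455. The members at least 2-fold lower were Ccna2 (-1.83), Kif20b (-1.79), Ndc80 (-1.47), Ect2 (-1.24) and Incenp (-1.04), and 6.45% of all tested genes were that far below. Pttg1 (0.49), Ncapd2 (0.36), Bub1b (0.26), Cenpa (0.15) and Bub1 (0.10) lay above vehicle.

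With GSK 690693 the mitosis genes stayed near vehicle, with a median of 0.00, 25 below and 26 above. Over all tested genes 43.6% lay below and 55.2% above. None of the 53 reached 1.5-fold in either direction, against 3.21% of all tested genes below and 2.4% above. The ends of the range were Mki67 (-0.52) and Kif18a (0.52). Set beside Compound C directly, with Compound C minus GSK 690693, 20 of the 53 read at least 1.5-fold below GSK 690693 (11.2% of all) and 0 higher (5.18% of all), with a median of -0.48.

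With tofacitinib, 46 of the 53 lay above vehicle, as did 62.7% of all tested genes. At least 1.5-fold higher were 5 (9.43%, against 2.66% of all tested genes), and 0 were at least 1.5-fold lower (2.0% of all). The median was 0.28 against 0.09 over all tested genes. These 5 were Ckap2l (0.90), Bub1b, Kif22 and Mad2l1 (0.61 each) and Kif18a (0.59). Subtracting each array's median moved the median of all tested genes from 0.09 to -0.08 and that of the mitosis genes to 0.11, with 37 above vehicle and Ckap2l alone at 1.5-fold. This scaling shifts all genes of an array alike, so it cannot alter how far the members lay from the other genes. Quantile normalization can, and gave a median of 0.17 for the members and 0.03 for all tested genes, with 39 members above vehicle and 1 at 1.5-fold. By role, the tofacitinib medians of the kinetochore, spindle and condensin groups were 0.16, 0.15 and 0.17 as deposited and -0.02, -0.02 and 0.00 with each array's median subtracted. Those of the cyclin, kinase, kinesin, passenger and anaphase groups were 0.36, 0.33, 0.33, 0.45 and 0.19 as deposited. With the medians subtracted they were 0.20, 0.16, 0.16, 0.28 and 0.02. Every group thus lay above the -0.08 of all tested genes.

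**Figure D2:**
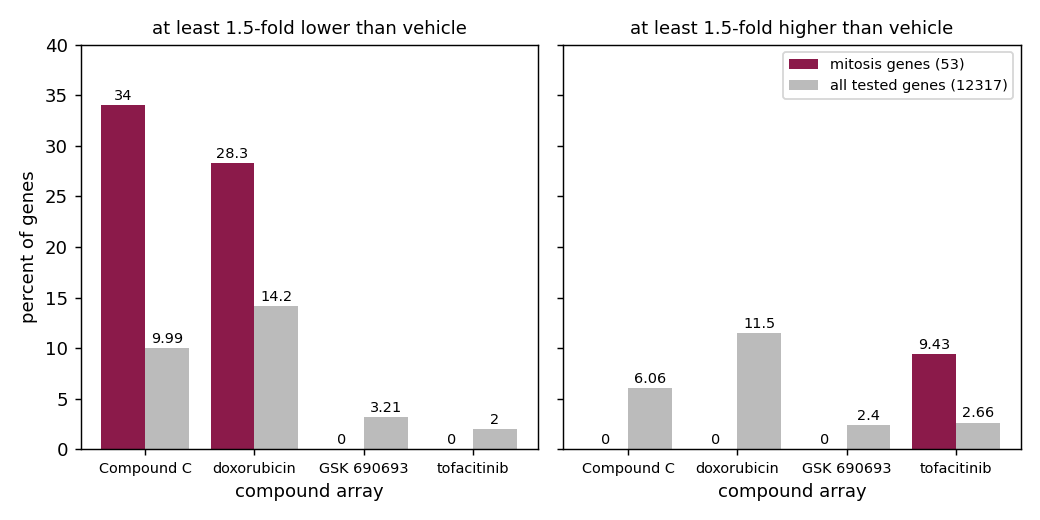
Percent of genes at least 1.5-fold lower (left) or higher (right) than vehicle on each compound array, for the 53 tested mitosis genes and for all 12317 tested genes, 1 array per treatment. The share of lower mitosis genes stands at 34.0% with Compound C and 28.3% with doxorubicin, above the grey bars of 9.99% and 14.2%, and the share of higher mitosis genes stands above its grey bar with tofacitinib, at 9.43% against 2.66%.

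**Figure D3:**
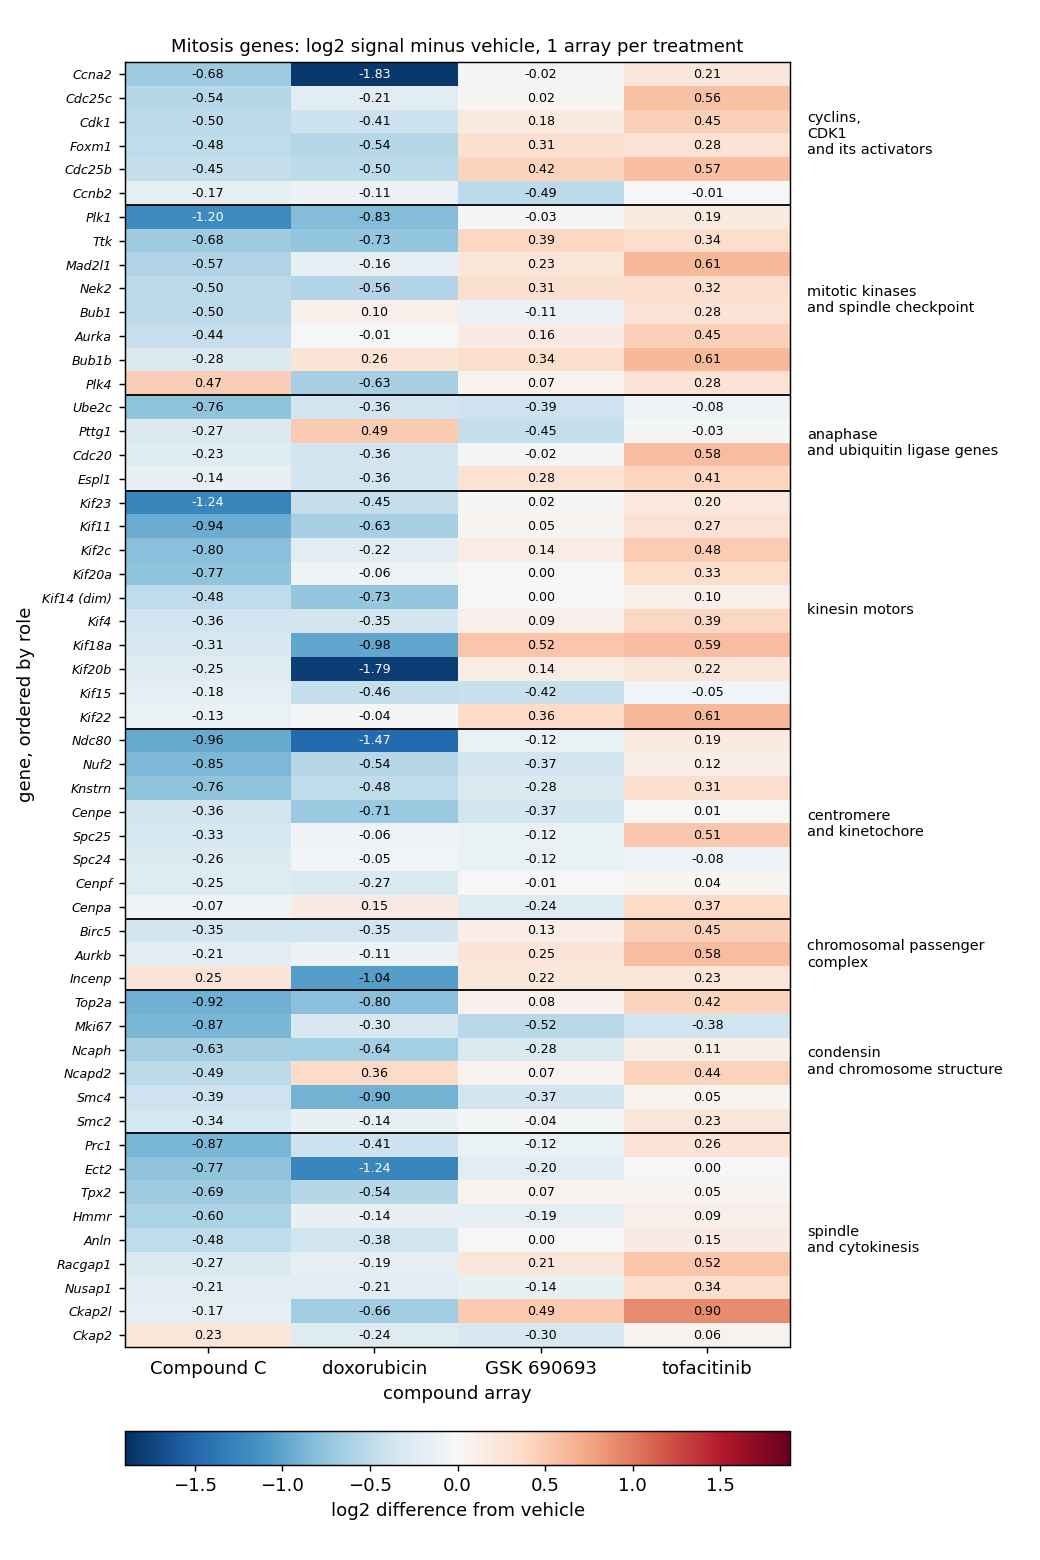
Log2 signal minus vehicle for the 54 mitosis genes with a probe set, in rows by role, on the 4 compound arrays, with blue below and red above vehicle and the value printed in each cell. Kif14 is marked as dim because it was not tested. The Compound C and doxorubicin columns are mostly blue, down to -1.83 for Ccna2 with doxorubicin, and the tofacitinib column is mostly red, up to 0.90 for Ckap2l.

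The genes of cyclins, CDK1, its CDC25 activators and FOXM1 comprised 6 tested members. All 6 lay below vehicle with Compound C (52.2% of all tested genes did) and with doxorubicin (45.1% did). At least 1.5-fold lower was Ccna2 alone with each (16.7% of the group, against 9.99% and 14.2% of all tested genes). Ccna2, the gene of cyclin A2, which drives S phase and entry into mitosis, read 8.36 with vehicle, 7.68 (Compound C), 6.53 (doxorubicin), 8.34 (GSK 690693) and 8.57 (tofacitinib). It was 3.56-fold lower with doxorubicin, farther from vehicle than any other member on any compound array. Ccnb2, a B-type cyclin that partners CDK1, behaved differently and read 7.74, 7.57, 7.63, 7.25 and 7.73 in the same order, with its lowest value on the GSK 690693 array. Cdk1 itself, the mitotic kinase, read 7.58 with vehicle, 7.08 (Compound C), 7.17 (doxorubicin), 7.76 (GSK 690693) and 8.03 (tofacitinib). Foxm1, a transcription factor that activates late cell cycle genes, stood at 7.36 with vehicle, 6.88 (Compound C), 6.82 (doxorubicin), 7.67 (GSK 690693) and 7.64 (tofacitinib). For Cdk1 and Foxm1 the Compound C and doxorubicin arrays were thus the lowest of the 5. The phosphatase genes Cdc25b and Cdc25c differed from vehicle by -0.45 and -0.54 with Compound C, -0.50 and -0.21 with doxorubicin and 0.57 and 0.56 with tofacitinib. Cdc25c reached the array median only on the tofacitinib array (5.85, against 5.29 with vehicle). It was tested through that value alone, so its place above vehicle and highest with tofacitinib is no separate result.

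Among 8 genes of mitotic kinases and the spindle checkpoint, 2 reached 1.5-fold below vehicle with Compound C (25%, against 9.99% of all tested genes) and 3 with doxorubicin (37.5%, against 14.2%), while 2 were at least 1.5-fold higher with tofacitinib (25%, against 2.66%). Plk1, the Polo-like kinase needed for mitotic entry and spindle assembly, read 8.30 with vehicle, 7.10 (Compound C), 7.47 (doxorubicin), 8.27 (GSK 690693) and 8.49 (tofacitinib). Plk4, the kinase that starts centriole duplication, read 7.62, 8.09, 6.99, 7.69 and 7.90 in the same order. Plk4 was therefore highest on the Compound C array, where Plk1 was lowest, and both lay below vehicle with doxorubicin. The checkpoint kinase gene Ttk read 6.74 with vehicle, 6.06 (Compound C), 6.01 (doxorubicin), 7.13 (GSK 690693) and 7.08 (tofacitinib). Aurka, which encodes the Aurora kinase of the spindle poles, read 7.02 with vehicle, 6.58 (Compound C), 7.01 (doxorubicin), 7.18 (GSK 690693) and 7.47 (tofacitinib). Bub1, whose product recruits checkpoint proteins to kinetochores, read 7.27, 6.77, 7.37, 7.16 and 7.55. Aurka and Bub1 thus lay within 0.10 of vehicle with doxorubicin and were lowest with Compound C. The checkpoint genes Bub1b and Mad2l1 read -0.28 and -0.57 from vehicle with Compound C, 0.26 and -0.16 with doxorubicin and 0.61 each with tofacitinib. Nek2, a centrosomal kinase gene, was at -0.50 with Compound C and -0.56 with doxorubicin.

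Of the 4 tested genes of anaphase and of the ubiquitin machinery, all lay below vehicle with Compound C (52.2% of all tested genes did). Their median was -0.25, and 1 was at least 1.5-fold lower (25%, against 9.99% of all tested genes). With doxorubicin 3 lay below vehicle (45.1% of all did), with a median of -0.36, and 0 reached 1.5-fold (14.2% of all). The Compound C member was Ube2c, the ubiquitin-conjugating enzyme that works with the APC/C, at 8.40 with vehicle, 7.64 (Compound C), 8.04 (doxorubicin), 8.01 (GSK 690693) and 8.32 (tofacitinib). Cdc20, the APC/C activator, read 7.57 with vehicle, 7.34 (Compound C), 7.21 (doxorubicin), 7.55 (GSK 690693) and 8.15 (tofacitinib). Pttg1, which encodes securin, the inhibitor of separase, read 6.64, 6.37, 7.13, 6.19 and 6.61 in that order. Pttg1 was the member farthest above vehicle with doxorubicin and the only tested member with its highest value on that array. Espl1, the separase gene, lay at -0.14 (Compound C), -0.36 (doxorubicin), 0.28 (GSK 690693) and 0.41 (tofacitinib). Sgo1, the current symbol of shugoshin 1, listed here as Sgol1, was not counted as a member. It read 5.74 with vehicle, 5.39 (Compound C), 4.26 (doxorubicin), 6.01 (GSK 690693) and 5.91 (tofacitinib), a difference of -1.48 with doxorubicin.

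Kinesins are motors that move along microtubules, and the mitotic kinesins slide, depolymerise or bundle them. All 9 tested kinesin genes lay below vehicle with Compound C (52.2% of all tested genes did) and with doxorubicin (45.1% did). By at least 1.5-fold these were 4 (44.4%, against 9.99% of all tested genes) and 3 (33.3%, against 14.2%). Kif23, the motor of the centralspindlin complex that organises the midzone, read 7.92 with vehicle, 6.68 (Compound C), 7.47 (doxorubicin), 7.94 (GSK 690693) and 8.12 (tofacitinib). Kif11, the motor that separates the spindle poles, read 7.50, 6.56, 6.87, 7.55 and 7.77. Kif20b, a kinesin of late cytokinesis, read 7.22 with vehicle, 6.97 (Compound C), 5.43 (doxorubicin), 7.36 (GSK 690693) and 7.44 (tofacitinib). Its relative Kif20a read 8.26, 7.49, 8.20, 8.26 and 8.59. The 2 relatives thus had opposite patterns, Kif20b low with doxorubicin (-1.79, 3.46-fold) and near vehicle with Compound C (-0.25), Kif20a low with Compound C (-0.77) and near vehicle with doxorubicin (-0.06). Kif18a, which dampens chromosome movements at the metaphase plate, read 5.60 with vehicle, 5.29 (Compound C), 4.62 (doxorubicin), 6.12 (GSK 690693) and 6.19 (tofacitinib). Kif2c, a microtubule depolymerase of the centromere, was lower by 0.80 on the log2 scale with Compound C and by 0.22 with doxorubicin. Kif4 stood at -0.36 and -0.35, Kif15 at -0.18 and -0.46 and Kif22 at -0.13 and -0.04 with those compounds. The dim gene Kif14 read 5.21 with vehicle, 4.73 (Compound C), 4.48 (doxorubicin), 5.21 (GSK 690693) and 5.31 (tofacitinib).

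Kinetochores are the protein plates on centromeres that bind spindle microtubules, and the NDC80 complex of NDC80, NUF2, SPC24 and SPC25 makes the contact. All 8 centromere and kinetochore genes lay below vehicle with Compound C (52.2% of all tested genes did). At least 1.5-fold lower were 3 of them (37.5%, against 9.99% of all tested genes). With doxorubicin 7 of 8 lay below vehicle (45.1% of all did), 2 by at least 1.5-fold (25%, against 14.2%). With GSK 690693 all 8 also lay below vehicle (43.6% of all did), the lowest at -0.37, with a median of -0.18. Ndc80 read 8.09 with vehicle, 7.13 (Compound C), 6.62 (doxorubicin), 7.97 (GSK 690693) and 8.28 (tofacitinib). Nuf2 read 8.08, 7.23, 7.54, 7.71 and 8.20. Spc24 read 6.60, 6.34, 6.55, 6.48 and 6.52, and was highest with vehicle. The complex's subunits were thus unequal, with Ndc80 and Nuf2 at -0.96 and -0.85 from vehicle with Compound C against -0.26 for Spc24 and -0.33 for Spc25. With doxorubicin Ndc80 was at -1.47 and Nuf2 at -0.54, against -0.05 for Spc24 and -0.06 for Spc25. Cenpe, the kinesin of the kinetochore, was at -0.36 with Compound C and -0.71 with doxorubicin, and Cenpf, a large kinetochore protein gene, at -0.25 and -0.27. Cenpa, the gene of the centromeric histone H3 variant, stayed within 0.15 of vehicle on both arrays. Knstrn, which encodes a spindle and kinetochore adaptor, was at -0.76 and -0.48. Its other probe set was dim, at 3.55 with vehicle, and stood at -0.20 and -0.54.

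The chromosomal passenger complex joins Aurora B with INCENP and survivin, and its 3 genes did not read alike. Incenp, the scaffold gene, read 7.25 with vehicle, 7.50 (Compound C), 6.21 (doxorubicin), 7.47 (GSK 690693) and 7.48 (tofacitinib). Aurkb, the kinase gene, read 7.27, 7.06, 7.16, 7.52 and 7.85. Birc5, the survivin gene, read 5.52, 5.17, 5.17, 5.65 and 5.97. The scaffold gene was thus 2.06-fold lower than vehicle with doxorubicin, where Aurkb was at -0.11, and lay above vehicle with Compound C, where Aurkb and Birc5 lay below it.

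Condensins fold the chromatids for mitosis, topoisomerase II alpha disentangles them, and Ki-67 coats them. All 6 tested genes of this group lay below vehicle with Compound C (52.2% of all tested genes did). There Top2a, Mki67 and Ncaph were at least 1.5-fold lower, and with doxorubicin Smc4, Top2a and Ncaph were. That is 50.0% of the group each time, against 9.99% and 14.2% of all tested genes. With each array's median subtracted, and with quantile normalization, 2 of the 6 were that low on each of these arrays. Top2a, whose product is the target of doxorubicin, read 8.41 with vehicle, 7.49 (Compound C), 7.61 (doxorubicin), 8.49 (GSK 690693) and 8.83 (tofacitinib). Mki67 read 9.09, 8.22, 8.79, 8.57 and 8.71, so that vehicle was the highest array and every compound array lay below it. Against the median of the other 4 arrays in place of vehicle, Mki67 with Compound C stood at -0.53 and Ube2c at -0.54, both short of 1.5-fold. With tofacitinib Mki67 was the member farthest below vehicle, at -0.38, and this went against the sign of most members there. Among the condensin genes, Smc4 was at -0.39 with Compound C and -0.90 with doxorubicin, whereas its partner Smc2 was at -0.34 and -0.14. Of the subunits particular to condensin I, Ncaph was at -0.63 and -0.64, and Ncapd2 at -0.49 and 0.36.

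The 9 genes of spindle assembly and cytokinesis held 4 members with a Compound C value at least 1.5-fold below vehicle (44.4%, against 9.99% of all tested genes) and 2 with such a doxorubicin value (22.2%, against 14.2%). Ect2, the exchange factor that activates RhoA at the cleavage furrow, read 9.15 with vehicle, 8.38 (Compound C), 7.91 (doxorubicin), 8.95 (GSK 690693) and 9.15 (tofacitinib). Racgap1, the centralspindlin partner of Kif23, read 7.58, 7.31, 7.39, 7.79 and 8.10, nearer to vehicle than Kif23 with Compound C. Ckap2l, which encodes a spindle protein, read 5.77 with vehicle, 5.60 (Compound C), 5.11 (doxorubicin), 6.26 (GSK 690693) and 6.67 (tofacitinib). Its difference of 0.90 with tofacitinib was larger than that of any other member above vehicle. The related Ckap2 read 8.47, 8.70, 8.23, 8.17 and 8.53 and was highest with Compound C. Prc1, which bundles midzone microtubules, was at -0.87 with Compound C and -0.41 with doxorubicin, and Tpx2, which activates Aurora A on the spindle, at -0.69 and -0.54. Hmmr was at -0.60 and -0.14, Anln, the gene of the furrow protein anillin, at -0.48 and -0.38, and Nusap1 at -0.21 and -0.21.

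Counting arrays instead of differences needs no reference array. Of the 53 genes, 30 had the lowest of their 5 values on the Compound C array (29.5% of all tested genes did), 19 on the doxorubicin array (25.6% of all), 4 on the GSK 690693 array (15.0% of all) and 0 on the vehicle (19.1% of all) and tofacitinib arrays (10.9% of all). The 4 with GSK 690693 were Ccnb2, Pttg1, Cenpa and Ckap2. The highest value lay on the tofacitinib array for 40 genes (17.6% of all tested genes) and on the vehicle array for 6 (12.8% of all), which were Ccnb2, Ube2c, Kif15, Spc24, Mki67 and Ect2. Compound C held the highest value of 3 (Plk4, Incenp and Ckap2, against 18.9% of all), GSK 690693 of 3 (Foxm1, Ttk and Tpx2, against 14.4%) and doxorubicin of 1 (Pttg1), although it was the highest array for 36.2% of all tested genes. At equal values the first array in the order of the treatments above was counted, which put Birc5 and Nusap1 with Compound C and Ect2 with vehicle. With each array's median subtracted the tofacitinib array was highest for 27, and with quantile normalization for 30. Relative to each gene's mean over the 5 arrays, the median of the members was -0.34 (Compound C), -0.24 (doxorubicin), 0.09 (vehicle), 0.14 (GSK 690693) and 0.43 (tofacitinib). Over all tested genes the same medians lay between -0.04 and 0.06.

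**Figure D4:**
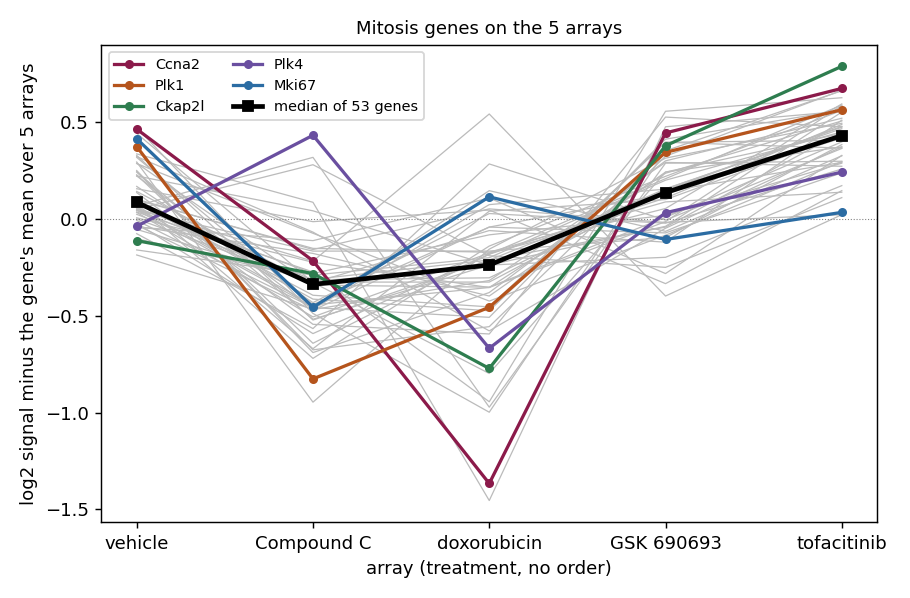
Log2 signal of the 53 tested mitosis genes on the 5 arrays, each minus the gene's own mean over the arrays, in grey, with 5 genes in colour and the median in black. Lines only join the values of a gene, since the treatments have no order. The median is lowest with Compound C (-0.34) and highest with tofacitinib (0.43), and Plk4 and Mki67 depart from it.

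The doxorubicin and Compound C arrays were also compared directly, and mitosis genes at 1.5-fold made up a smaller share than among all tested genes. With doxorubicin minus Compound C, 5 of 53 were at least 1.5-fold lower with doxorubicin (9.43%, against 14.9% of all tested genes) and 5 at least 1.5-fold higher (9.43%, against 15.4%). Lower with doxorubicin were Kif20b (-1.54), Incenp (-1.29), Ccna2 (-1.15), Plk4 (-1.10) and Kif18a (-0.67). Higher with doxorubicin were Ncapd2 (0.85), Kif23 (0.79), Pttg1 (0.76), Kif20a (0.71) and Bub1 (0.60). Birc5 and Nusap1 read the same on both arrays, and Kif4, Ncaph, Cenpf, Ttk, Cdc25b, Nek2, Foxm1 and Ccnb2 lay within 0.06. The median over members was 0.09, against 0.13 over all tested genes.

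**Figure D5:**
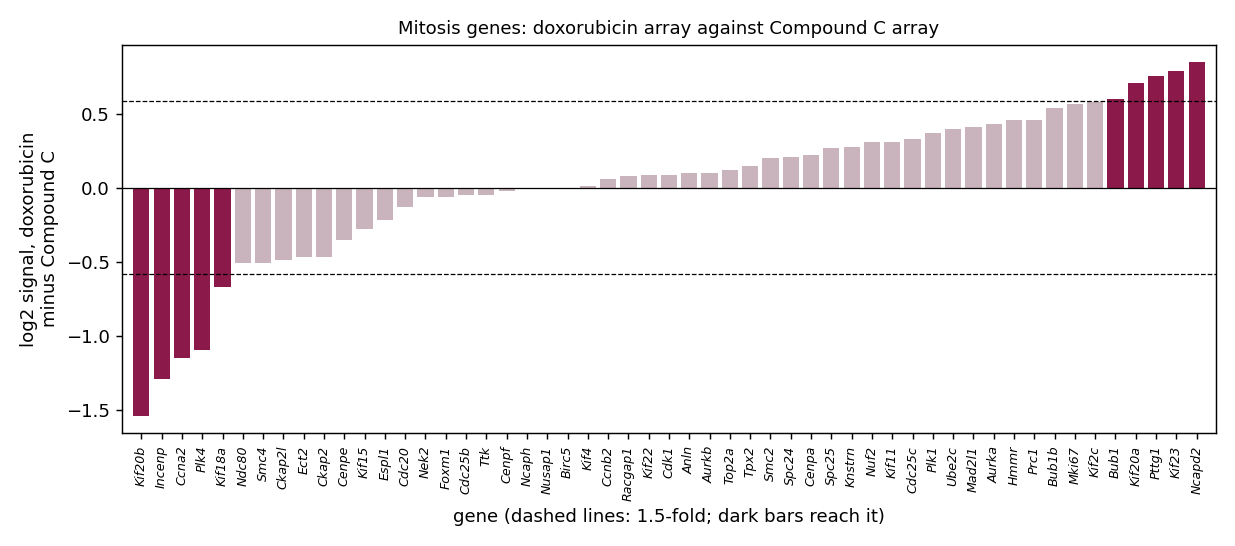
Log2 signal on the doxorubicin array minus that on the Compound C array for each of the 53 tested mitosis genes, in ascending order, with dashed lines at 1.5-fold and dark bars for the genes that reach it. The bars run from -1.54 for Kif20b to 0.85 for Ncapd2, and 43 of 53 stay between the lines.

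Comparisons with vehicle share the vehicle array, so low members were also counted in pairs of comparisons that share none. With Compound C minus GSK 690693, 20 members were at least 1.5-fold lower, and with doxorubicin minus tofacitinib 34 (64.2%, against 16.8% of all tested genes), with 0 higher (5.68% of all). The lists had 17 members in common, which is 85.0% of the first and 50.0% of the second, beside 37.9% and 25.1% over all tested genes. Among the members low values were common, with 64.2% of all 53 in the second list and 37.7% in the first, and these shares are the nearer reference for the overlap. With the other pairing, Compound C minus tofacitinib gave 37 lower members (69.8%, against 15.3% of all) and 0 higher (5.5% of all). Doxorubicin minus GSK 690693 gave 18 (34.0%, against 16.5% of all), with Pttg1 (0.94) higher (11.3% of all). They had 14 in common, or 37.8% and 77.8%, beside 26.0% and 24.2% over all tested genes, and beside 34.0% and 69.8% of all 53 members in the other list. This overlap was close to those shares.

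Tofacitinib and GSK 690693 gave the closest arrays of the series. Of the 53 mitosis genes 50 read higher with tofacitinib, as did 56.6% of all tested genes. The median of tofacitinib minus GSK 690693 was 0.31 against 0.04 over all tested genes. At least 1.5-fold higher with tofacitinib were 4 members (7.55%, against 2.31% of all tested genes) and 0 were that much lower (1.14% of all). The 4 were Spc25 (0.63), Cenpa (0.61), Cdc20 (0.60) and Knstrn (0.59), just past the threshold, and none of the members reached 1.5-fold with each array's median subtracted.

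Members with and without a CHR in the promoter window were also set side by side, over all 45 windows, which include the dim gene Kif14 among those with a CHR. With Compound C the 32 members with a CHR had a median of -0.46 and the 13 without it a median of -0.45, and 12 and 3 of them were at least 1.5-fold lower (9.99% of all tested genes were). With doxorubicin the medians were -0.36 and -0.50, and 9 and 4 were at least 1.5-fold lower (14.2% of all). With tofacitinib the medians were 0.27 and 0.31. Plk4, shown above without either motif, read above vehicle with Compound C, but Nuf2 and Ncaph, also without both, read below it by 0.85 and 0.63. Ckap2, which carries both motifs, also read above vehicle there (0.23), and Incenp (0.25) had no window.

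Other genes of mitosis, in lists of related function that hold no member, read less evenly with Compound C. With doxorubicin they did so too, apart from the other spindle and cytokinesis genes. Their counts are to be set against all tested genes, where the 1.5-fold shares were 9.99% below and 6.06% above vehicle with Compound C, and 14.2% below and 11.5% above it with doxorubicin. Of 26 other kinetochore and checkpoint genes, 5 were at least 1.5-fold lower (19.2%) and 1 higher (3.85%) with Compound C, and 6 lower (23.1%) and 0 higher with doxorubicin. Cenpn, which reads the centromeric nucleosome, stood at -1.23 with Compound C, and the checkpoint ATPase gene Trip13 at -1.22. Cenpc1, the kinetochore's centromere anchor, read 7.69 with vehicle, 8.61 with Compound C and 5.95 with doxorubicin, so that the 2 compounds lay on opposite sides of vehicle. Of 31 other spindle and cytokinesis genes, 7 were lower (22.6%) and 3 higher (9.68%) with Compound C, and 13 lower (41.9%) and 0 higher with doxorubicin, with a median of -0.57. Gtse1, a microtubule-binding p53 regulator, showed the same opposition, at 1.48 with Compound C and -1.26 with doxorubicin. Melk was at -1.04 with Compound C, and Kpna2 and Cdca2 at -1.29 each with doxorubicin.

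Of 11 genes that control entry into mitosis, 4 lay at least 1.5-fold below vehicle with Compound C (36.4%, against 9.99% of all tested genes) and 0 above, and 4 lower (36.4%, against 14.2%) and 1 higher with doxorubicin. Wee1, the kinase that restrains CDK1, read 7.66 with vehicle, 7.66 (Compound C), 5.01 (doxorubicin), 8.08 (GSK 690693) and 8.06 (tofacitinib). The difference of -2.65 with doxorubicin was larger than that of any member, and the opposing phosphatase gene Cdc25a was also low there, at -1.49. Bora, the activator of Aurora A and Plk1, read 7.39, 5.85, 6.74, 6.94 and 7.55, lowest with Compound C. Among the 15 genes of MuvB, B-Myb, E2F repressors and NF-Y, 1 was lower (6.67%) and 2 higher (13.3%) with Compound C, and 3 lower (20%) and 1 higher (6.67%) with doxorubicin. The lower shares were near those of all tested genes, 9.99% and 14.2%. Nfya, the NF-Y subunit that contacts the CCAAT box, read 9.75 with vehicle, 9.99 (Compound C), 7.99 (doxorubicin), 9.15 (GSK 690693) and 9.17 (tofacitinib). E2f4 and Lin37, parts of the DREAM complex, were at -1.08 and -1.02 with doxorubicin.

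Subunits of the APC/C and cohesin work in mitosis and at other times. Their medians were -0.20 and 0.00 with Compound C, and 0.19 and -0.29 with doxorubicin. Of 17 APC/C genes, 1 was lower and 1 higher with Compound C (5.88% each), and 2 were lower (11.8%) and 3 higher (17.6%) with doxorubicin, shares near those of all tested genes. The lower 2 with doxorubicin were the regulators Fbxo5 (-1.14) and Fzr1 (-1.03). Of 17 cohesin and condensin II genes, 1 was lower with Compound C (5.88%), which was Ncapd3 (-0.82), and 4 with doxorubicin (23.5%, against 14.2% of all tested genes), led by the cohesin release factor gene Wapl (-1.22). Of 20 centrosome and centriole genes, 2 were lower (10.0%, against 9.99% of all) and 0 higher with Compound C, and 5 lower (25%) and 2 higher (10.0%) with doxorubicin, with Stil, a centriole assembly gene, at -1.74. The rise with tofacitinib was not particular to the members. There 24 of 26 other kinetochore, 29 of 31 other spindle and 10 of 11 mitotic entry genes lay above vehicle. Over all tested genes 62.7% did. The medians of the kinetochore, spindle and entry lists were 0.32, 0.27 and 0.29. With each array's median subtracted, 18, 19 and 8 of their genes lay above vehicle, with medians of 0.15, 0.10 and 0.12. The APC/C, centrosome, cohesin and MuvB lists had tofacitinib medians of 0.25, 0.26, 0.12 and 0.12, against 0.28 for the members and 0.09 for all tested genes. Median subtraction brought them to 0.08, 0.08, -0.05 and -0.05, against 0.11 for the members and -0.08 for all tested genes.

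The set from outside mitosis that was placed beside the members is that of DNA replication and the G1/S transition, with 49 tested genes. With Compound C its median was -0.15, with 8 at least 1.5-fold lower (16.3%, against 9.99% of all tested genes) and 1 higher, against -0.45 for the mitosis genes. With doxorubicin it was -0.02, with 7 lower (14.3%, against 14.2% of all) and 2 higher, against -0.36. With tofacitinib it was 0.37, with 9 higher (18.4%, against 2.66% of all) and 0 lower, against 0.28. With each array's median subtracted it was 0.20 against 0.11, and 2 of the 49 were then at least 1.5-fold higher. Quantile normalization also left 2 of the 49 higher. The 9 higher as deposited include Gins1 (0.82), which was tested only through its tofacitinib value of 5.49, so its high value there is no separate result. The CHR occurred in 17.1% of the 41 promoter windows of the replication genes, against 71.1% for the mitosis genes, and the CCAAT box in 68.3% against 68.9%. Without replicates, whether the sets differ cannot be tested.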

How the data were processed

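The values deposited by the authors are log2 signals of probe sets, made with Affymetrix Expression Console 1.3.1.187 per the submitters' processing notes. How they were summarised, background-corrected and normalized is not given in the sources used here. A log2 scale was inferred from the deposited values, which run from 1.05 to 13.18. If the arrays were set to a common distribution, a shift of most genes in 1 direction would have been removed, and unremoved background would make differences between dim values too small.

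Of 41345 probe sets, 23521 had 1 symbol in the platform annotation, 1814 had several and 16010 were not listed. The genes with 1 symbol were represented by their highest-mean probe set. A gene was tested if its highest value reached the median of that array, between 5.37 and 5.44. Depth has no counterpart on arrays, and the number of arrays limits the precision. With 1 array per group, comparisons are sizes and counts at 1.5-fold and 2-fold, read against all 12317 tested genes. The members, the gene lists and the tests were chosen with earlier results of these data known. All members could be named, with values on all arrays for the 5 at each end of a comparison and for a set fixed by function, and from other lists the 3 largest differences per comparison. Counting was tested on simulated data with planted differences well past the 2-fold threshold. This checked the code and not how sure the reported counts are. Alternatives were median subtraction, quantile normalization, other filters, all probe sets averaged and another reference. Promoters came from RefSeq (GRCm38.p6), the first listed start of each gene. Python 3.11.15, pandas 2.3.3 and numpy 2.4.6 were used.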

Additional observations from a re-analysis of the deposited data

How the results depend on the processing

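No paired analysis was possible because each group has 1 array, and no array could be left out. A count was taken as stable within 1.5 times, a median within 0.1 and a single gene within the standard deviation of the closest pair of arrays. The counts of members lower with Compound C and with doxorubicin stayed within that limit under all alternatives run. With each array's median subtracted, 1 member was lower with GSK 690693, 1 was higher with tofacitinib, the tofacitinib median was 0.11 and 0 members were higher in tofacitinib minus GSK 690693. Quantile normalization gave 1 higher member and a median of 0.17 with tofacitinib, and 0 in tofacitinib minus GSK 690693. With a reference made of the other 4 arrays' median, 1 member was higher with doxorubicin, 3 were higher with GSK 690693 (median 0.16) and 19 with tofacitinib (median 0.52). The stricter filter left 29 members, and smaller counts follow from that: 1 higher with tofacitinib, 2 lower and 2 higher in doxorubicin minus Compound C, 2 higher in tofacitinib minus GSK 690693, 18 and 9 with their lowest value on the Compound C and doxorubicin arrays, and 21 with their highest on the tofacitinib array. The Compound C median was then -0.63. Alternatives for comparisons between compound arrays and for array ranks were added after the data were seen. Among single genes, 17 values moved, all under that reference, and no called value changed sign. Calls did end there for Mki67 (-0.53) and Ube2c (-0.54) with Compound C and for Bub1b (0.48) with tofacitinib. Kif11 with doxorubicin (-0.57) lost its call under both rescalings. With tofacitinib so did Bub1b (0.44 with median subtraction, 0.49 with quantile normalization), Kif22 (0.44, 0.46), Mad2l1 (0.44, 0.50) and Kif18a (0.42, 0.53). Only the 5 members at each end of a comparison and the set fixed by function were followed singly, so other calls ended too. Members lower with Compound C went from 18 to 16 under both rescalings. With doxorubicin they went from 15 to 12 with median subtraction and to 13 with quantile normalization. Of limits, differences just past 1.5-fold cannot be told from noise without replicates, and dim genes such as Kif14 may lie at background.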
